A study of Mus musculus with 7 samples.

Results

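The unfolded protein response and chaperone genes described here are 40 genes, chosen by symbol, whose products sense, fold, refold or dispose of proteins in the endoplasmic reticulum (ER), the cytosol and the mitochondria. All 40 were among the 17537 genes listed, and all 40 passed the filter on low values, which asked for at least 1 CPM in at least 2 libraries. CPM is the read count of a gene normalised to the size of its library. The 40 genes comprise 14 ER chaperones and folding enzymes, 5 sensors and transcription factors of the unfolded protein response, 4 genes of ER-associated degradation, 5 targets of the PERK-ATF4 branch, 9 cytosolic heat shock genes and 3 mitochondrial heat shock genes.

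Kidney mRNA was measured in 7 polyA-selected, strand-specific libraries from wild-type C57BL/6 mice. The labels describe the mice as male and 8 to 10 weeks old at the start, whereas the study's methods name both sexes. According to the methods, tissue was taken after 22 weeks of hyperglycemia and controls were matched for age. Nondiabetic controls (C, n = 3, replicates 2, 8 and 9) received sodium citrate according to the methods. Diabetic mice (DM-22, n = 2) received 60 mg/kg streptozotocin, a toxin of pancreatic beta cells, on 5 days and remained hyperglycemic for 22 weeks without an inhibitor. Diabetic mice with glucose lowering (DM+SGLT2i, n = 2) received the same streptozotocin and, over the last 6 weeks, starting at week 16, drinking water with dapagliflozin (25 mg/kg). Dapagliflozin inhibits SGLT2, the glucose transporter of the proximal tubule. The comparisons ask which genes differ with hyperglycemia and which of these differences remain when glucose is lowered. The labels do not say which animal each library came from, so the spread between libraries may be partly technical. The tissue was whole kidney, and fewer cells of a type and less RNA per cell cannot be told apart.

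The unfolded protein response is the program by which a cell answers to misfolded proteins in the ER. The sensors IRE1 (Ern1), PERK (Eif2ak3) and ATF6 sit in the ER membrane. IRE1 splices the mRNA of Xbp1, ATF6 is released as a transcription factor, and both raise ER chaperones and degradation genes. PERK phosphorylates the translation factor eIF2alpha, which slows protein synthesis but favours translation of ATF4, and ATF4 activates genes of amino acid supply and of stress. The heat shock response is a separate program, in which HSF1 raises cytosolic chaperones. Proximal tubule cells carry a heavy load of membrane transport and protein uptake, and ER stress has been studied widely in diabetic kidneys.

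DNA letters known for these programs were searched in the 250 bases before the transcription start (RefSeq, GRCm38.p6) on both strands, for the 33 of 40 genes with a promoter entry. The others were Hyou1, Manf, Atf6, Hspa8, Hsp90aa1, Hsp90ab1 and Hspa9. The ER stress element (ERSE, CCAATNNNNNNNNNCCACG) was found before 8 of 33 genes (24.2%), against 35 of 27025 genes with a promoter (0.13%). The 30-base windows are shown because they carry the letters through which the ER chaperones are known to be induced together. They are written 5′ to 3′ on the strand of the match, with the element in capitals.
Hspa5: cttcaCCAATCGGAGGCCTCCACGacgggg
Hsp90b1, gene strand: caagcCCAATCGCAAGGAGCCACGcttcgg
Hsp90b1, opposite strand: actcaCCAATCGTGCCTCACCACGcactct
Calr: atgggCCAATGAGGGTCGACCACGcgttgt
Canx: attgaCCAATCACCACGCTCCACGaagaat
Pdia6: agagaCCAATGAAAGGCGGCCACGgcgtgg
Dnajc3: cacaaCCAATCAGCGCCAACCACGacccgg
Creld2: gtggaCCAATTGAGGCTCGCCACGagaagc
Syvn1: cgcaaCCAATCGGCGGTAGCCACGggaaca
The windows of Hspa5 (chr2:34772020-34772049), Pdia6 (chr12:17266486-17266515), Dnajc3 (chr14:118937822-118937851), Syvn1 (chr19:6046527-6046556), Calr (chr8:84847070-84847099) and the opposite-strand window of Hsp90b1 (chr10:86705528-86705557) lie on the plus strand. Those of Canx (chr11:50325794-50325823), Creld2 (chr15:88819514-88819543) and the gene-strand window of Hsp90b1 (chr10:86705632-86705661) lie on the minus strand. The element began 65 bases before the start of Hspa5 and 44 bases before that of Syvn1, and 212 bases before that of Hsp90b1 in the most distant case. Of these 8 genes, 7 are ER chaperones and folding enzymes, and Syvn1 is the ubiquitin ligase of ER-associated degradation.

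The letters of the other elements were found before few of the genes. ERSE-II (ATTGGNCCACG) was found before Herpud1 alone (1 of 33, 3.03%, against 0.037% of genes). The C/EBP-ATF response element, which ATF4 binds (CARE, TGATGNAA), was found before Herpud1, Chac1 and Asns (3 of 33, 9.09%, against 3.91%). The heat shock element (HSE, GAANNTTCNNGAA) was found before Hspd1 and Hspe1 (2 of 33, 6.06%, against 0.514%). Of the 9 cytosolic heat shock genes, 6 had a promoter entry, and 0 of these 6 carried the HSE letters searched. The XBP1 and ATF6 element (UPRE, TGACGTGG) was found before 0 of 33, against 0.603% of genes. The windows are shown because Asns and Herpud1 recur in the comparisons below, and because Hspd1 and Hspe1 share theirs.
Herpud1, ERSE-II: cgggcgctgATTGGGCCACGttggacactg
Herpud1, CARE: ggggtgcgggcTGATGCAAcccgccgtggt
Chac1, CARE: cctggcaggagTGATGCAAcggcagggaag
Asns, CARE: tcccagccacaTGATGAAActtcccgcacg
Hspe1, HSE: ccgttctaGAACCTTCCGGAAggccccgcg
Hspd1, HSE: gccttccgGAAGGTTCTAGAAcggaccgtg
The Herpud1 windows are at chr8:94386368-94386397 on the plus strand and chr8:94386306-94386335 on the minus strand. The Chac1 window is at chr2:119351038-119351067 and the Asns window at chr6:7693214-7693243, both on the minus strand. Hspd1 and Hspe1 are transcribed away from each other, and their windows overlap. They are at chr1:55088056-55088085 on the plus strand and chr1:55088050-55088079 on the minus strand, before the RefSeq starts of both genes. These windows hold the overlapping matches, and none of the other matches overlap. The GENCODE annotation differs from RefSeq here, since it starts Hspd1 at chr1:55088243. By that start the windows lie inside Hspd1 and before Hspe1 alone. GENCODE exons of Hspd1 and Hspe1 also share 112 bases on opposite strands, 4.24% of the exonic length of Hspd1 and 7.6% of that of Hspe1.

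The 7 libraries held between 46456125 and 56541594 reads on listed genes, and 1 read corresponded to 0.018 to 0.0231 CPM. Of the 12 proximal tubule markers by which the tissue label was checked, 0 were at 0 in any library. Control replicate 2 stood apart from the other controls. Its log2 values correlated with those of control replicates 8 and 9 at r = 0.939 and 0.935 across the genes tested. The latter correlated with each other at r = 0.991. Control replicate 2 correlated more closely with every diabetic library than with either other control. The values were r = 0.9755 and 0.9556 for DM-22 and 0.9698 and 0.9855 for DM+SGLT2i replicates 1 and 2. Proximal tubule markers of control replicate 2 summed to 9347 CPM, against 22073 and 19501 CPM in replicates 8 and 9, 10630 and 21607 CPM in DM-22 and 14645 and 15071 CPM in DM+SGLT2i libraries. Its 8 macrophage and myeloid markers summed to 565 CPM, against 149 to 334 CPM elsewhere. Control replicate 9 differed in another way, since 17 immediate early genes summed to 4688 CPM there and to 271 to 514 CPM in the other 6 libraries, with Egr3 at 0 in DM-22 replicate 2. DM+SGLT2i replicate 1 held 403 CPM of 5 adipose markers, against 33.4 to 79.0 CPM elsewhere. Counts over the 40 genes are therefore given with all 3 controls and without control replicate 2. Differences of single genes and of lists are with all 3 controls unless stated. The part of these cell and state markers in the results was not tested.

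**Figure D1:**
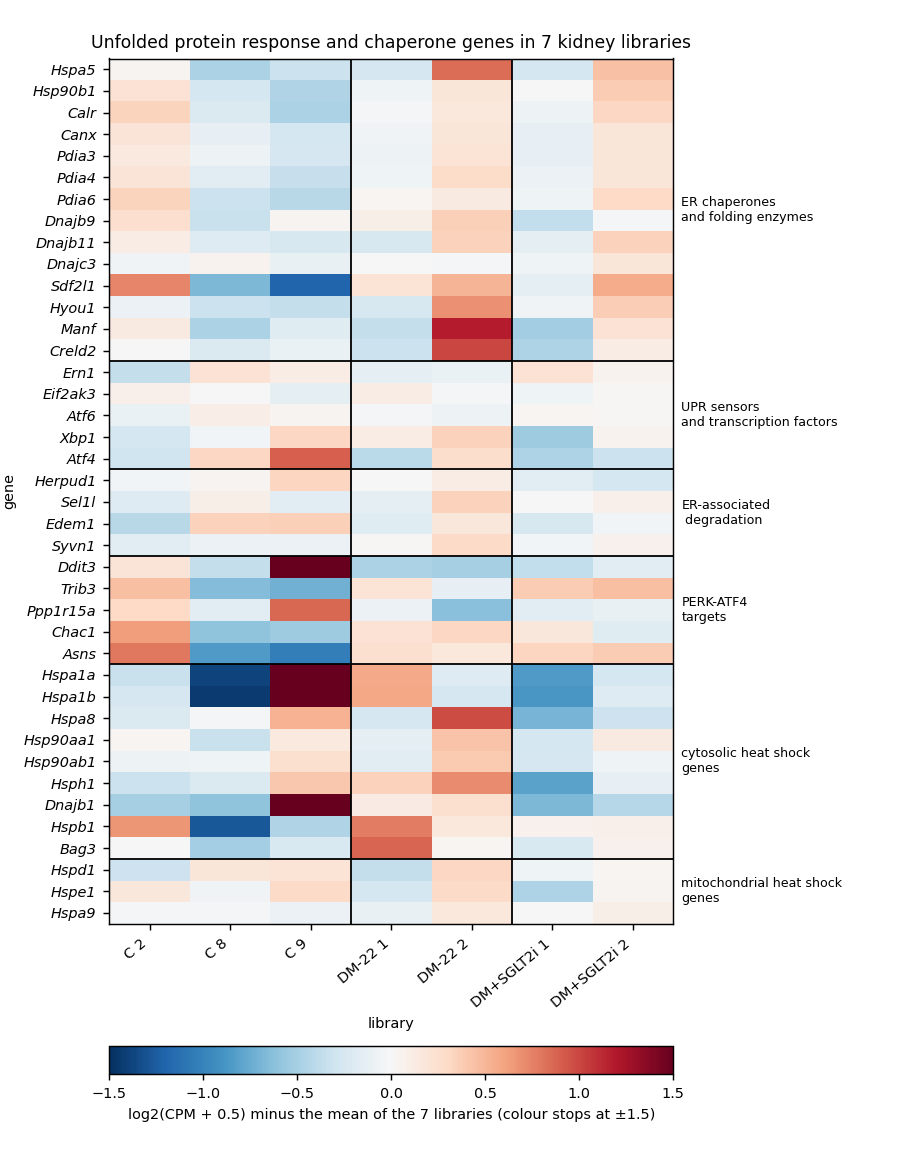
Each row is 1 of the 40 genes and each column 1 of the 7 libraries, and colour gives log2(CPM + 0.5) minus the gene's mean over the 7 libraries. Heat shock genes Hspa1a, Hspa1b and Dnajb1 stood highest in C replicate 9, ER chaperones Manf, Creld2 and Hspa5 in DM-22 replicate 2, and Asns was lowest in C replicates 8 and 9.

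The most abundant of the 40 mRNAs per exonic length was Hspa8, the constitutive cytosolic Hsp70, with a mean of 576 CPM per kb over the 7 libraries. It was followed by Hsp90ab1, the constitutive cytosolic Hsp90 (405 CPM per kb), Calr, the ER lectin calreticulin (321 CPM per kb), Hspd1, the mitochondrial Hsp60 (216 CPM per kb), and Hspa9, the mitochondrial Hsp70 (199.9 CPM per kb). Hspa8 alone took between 0.154% of the reads (DM+SGLT2i replicate 1) and 0.405% (DM-22 replicate 2), where it ranked 14th among all genes listed. The 40 genes together took between 0.947% and 1.31% of the reads. By class, the median level per exonic length was 199.9 CPM per kb for the mitochondrial heat shock genes, 56.3 CPM per kb for the cytosolic ones and 39.95 CPM per kb for the ER chaperones. It was 16.3 CPM per kb for ER-associated degradation, 7.90 CPM per kb for sensors and transcription factors, and 3.07 CPM per kb for the PERK-ATF4 targets, of which Trib3 (0.971 CPM per kb) and Chac1 (0.607 CPM per kb) were the least abundant of all 40.

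Levels of the cytosolic heat shock genes and the PERK-ATF4 targets varied more between libraries than those of the other classes. The ratio of the highest to the lowest library, with 0.5 CPM added, had a median of 3.18 over the cytosolic heat shock genes and 2.81 over the PERK-ATF4 targets. It was 1.71 over the ER chaperones, 1.60 over the mitochondrial heat shock genes, 1.49 over the sensors and transcription factors and 1.47 over ER-associated degradation, and 1.65 over all 13976 genes tested. DM-22 replicate 2 was the highest library for 18 of the 40 genes (45%), against 20.8% of all genes tested. DM+SGLT2i replicate 1 was the highest for 0 and the lowest for 10 of the 40, against 10.8% and 18.7% of all genes. Control replicate 9 was the highest for 8 (20%) and the lowest for 12 (30%), against 15.2% and 14.3% of all genes.

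**Figure D2:**
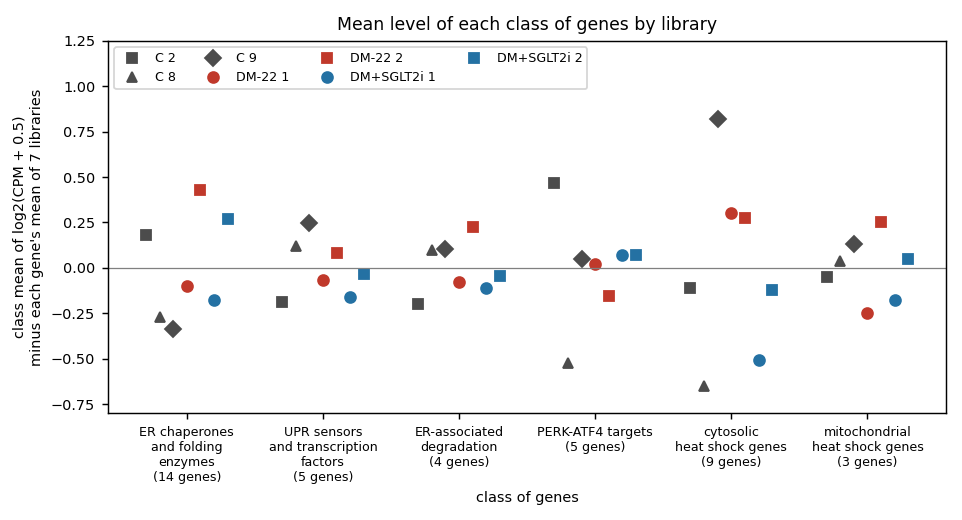
For each class, points give the mean over its genes of log2(CPM + 0.5) minus the gene's mean over 7 libraries, with colour for the group and shape for the replicate number. The ER chaperones reached 0.43 in DM-22 replicate 2 and -0.33 in C replicate 9, whereas the cytosolic heat shock genes reached 0.82 in C replicate 9 and -0.65 in C replicate 8.

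No gene of the 40 passed the threshold of 0.05 on the adjusted p in any comparison by limma, with or without control replicate 2. With all 3 controls, 0% of all 13976 genes passed it in DM-22 versus C, 0% in DM+SGLT2i versus C, 0% in DM+SGLT2i versus DM-22 and 0% in all diabetic libraries versus C. Without control replicate 2, the share of all genes past it was 0.0143% in DM-22 versus C, 0.122% in DM+SGLT2i versus C, 0% in DM+SGLT2i versus DM-22 and 0.2% in all diabetic libraries versus C. At an unadjusted limma p under 0.05 with all 3 controls, 1 of the 40 genes passed in DM-22 versus C (Bag3, against 4.47% of all genes), 0 in DM+SGLT2i versus C (against 1.08%), 1 in DM+SGLT2i versus DM-22 (Hsph1, against 3.91%) and 0 in all diabetic libraries versus C (against 2.04%). The DM-22 and DM+SGLT2i groups share their controls, and the DM-22 libraries enter both the comparison with controls and that with DM+SGLT2i.

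Without control replicate 2, more genes reached an unadjusted limma p under 0.05. In DM-22 versus C there were 7 of 40 higher, namely Pdia6, Sdf2l1, Trib3, Chac1, Asns, Hspb1 and Bag3 (17.5%, against 10.4% of all genes), and 0 lower (against 14.8%). In DM+SGLT2i versus C there were 6 higher, namely Hsp90b1, Pdia6, Sdf2l1, Trib3, Asns and Hspb1 (15%, against 8.73%), and 3 lower, namely Atf4, Herpud1 and Edem1 (7.5%, against 9.14%). In all diabetic libraries versus C there were 7 higher (17.5%, against 10.4%) and 2 lower (5%, against 14.5%). In DM+SGLT2i versus DM-22, where control replicate 2 enters only through the estimate of the spread, Hsph1 remained the 1 lower gene (2.5%, against 3.89%). None of these passed the adjusted threshold. Control replicate 2 was the highest control for each gene named here as higher than C, and the lowest for each named as lower. Leaving it out therefore widened their differences from C. In DM-22 versus C, the number of all genes at that unadjusted level was 625 with all 3 controls and 3525 without control replicate 2.

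Counting libraries instead, Syvn1 was the 1 gene of 40 whose 4 diabetic libraries all lay above the 3 controls (2.5%, against 1.31% of all genes), and 0 lay below them (against 1.38%). Without control replicate 2, 14 of 40 genes lay above both remaining controls in all 4 diabetic libraries (35%, against 15.1% of all genes) and 3 lay below (7.5%, against 20.8%). The 14 were Hspa5, Hsp90b1, Calr, Canx, Pdia4, Pdia6, Sdf2l1, Hyou1, Syvn1, Trib3, Chac1, Asns, Hspb1 and Bag3, of which 8 are ER chaperones and folding enzymes. The 3 were Atf6, Atf4 and Edem1.

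**Figure D3:**
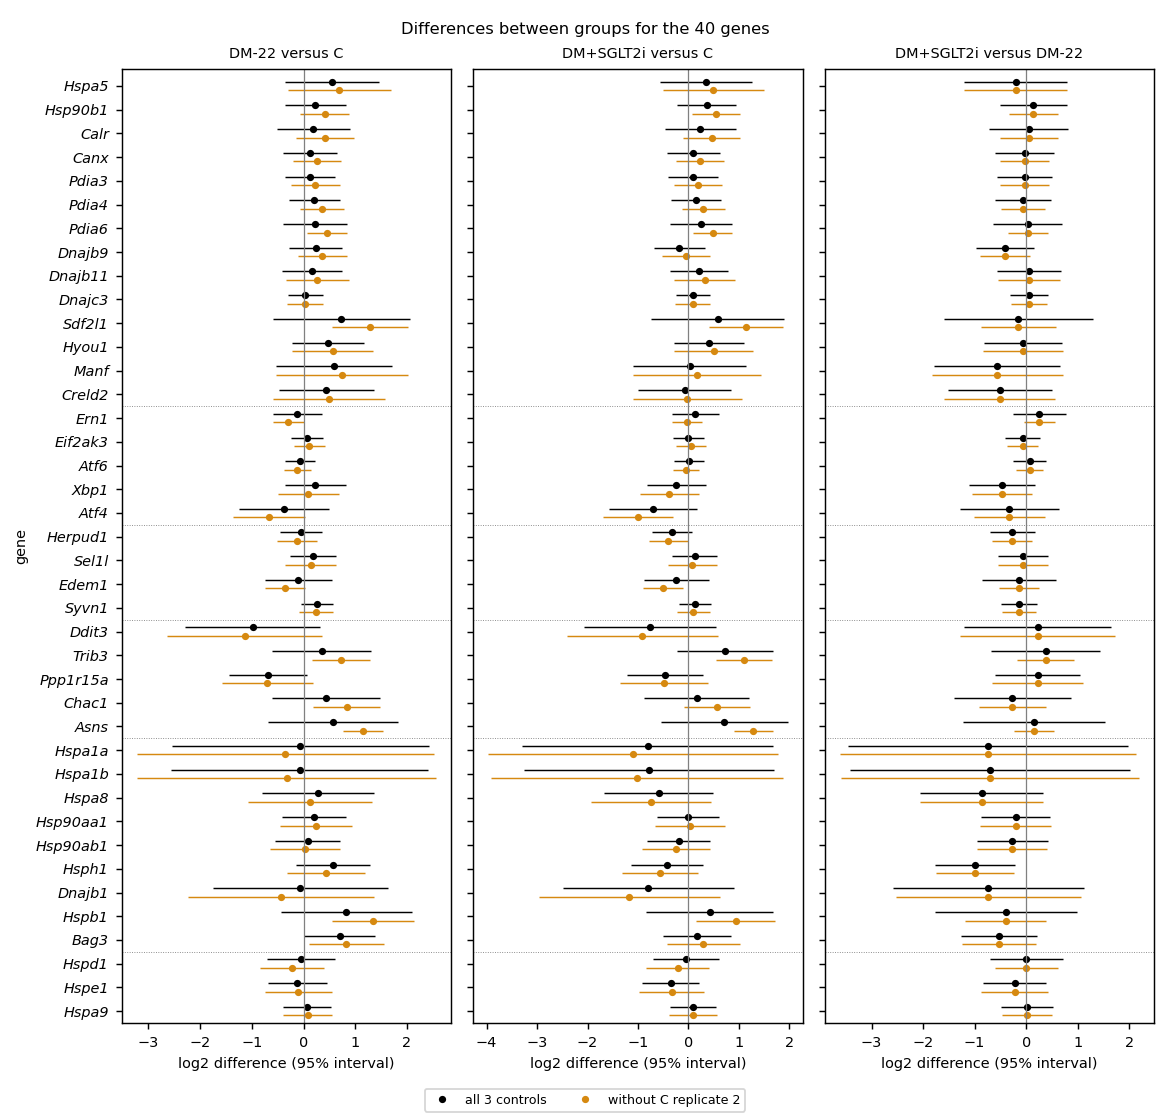
Points are limma log2 differences and lines their 95% intervals for the 40 genes in 3 comparisons, in black with all 3 controls and in orange without C replicate 2. With all 3 controls every interval included 0 apart from those of Bag3 in DM-22 versus C (0.02 to 1.37) and Hsph1 in DM+SGLT2i versus DM-22 (-1.77 to -0.21).

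The ER chaperones and folding enzymes had higher mean log2 levels in DM-22 than in C for 14 of 14 genes, with a median difference of 0.22 on the log2 scale, beside 50.7% of all genes tested and a median of 0.0045. None of the 14 passed even the unadjusted threshold. In DM+SGLT2i versus C the difference was above 0 for 12 of 14, with a median of 0.18, and in DM+SGLT2i versus DM-22 for 5 of 14, with a median of -0.04. The medians against C were 0.41 and 0.31 when control replicate 2 was left out. Single libraries moved these counts. The median difference between DM-22 and C was 0.02 without DM-22 replicate 2 (10 of 14 above 0), 0.09 without control replicate 9 (13 of 14) and 0.37 without DM-22 replicate 1 (14 of 14). Between DM+SGLT2i and C it was -0.01 without DM+SGLT2i replicate 2 (6 of 14), 0.06 without control replicate 9 (10 of 14) and 0.41 without DM+SGLT2i replicate 1 (13 of 14). Between DM+SGLT2i and DM-22 the median turned positive without DM-22 replicate 2 (12 of 14, 0.13) and without DM+SGLT2i replicate 1 (11 of 14, 0.15), and it was lower without DM-22 replicate 1 (2 of 14, -0.23) and without DM+SGLT2i replicate 2 (0 of 14, -0.19).

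Hspa5, known as BiP, is the ER Hsp70 that binds nascent chains and holds the sensors inactive. Its level was 491, 343 and 382 CPM in C replicates 2, 8 and 9, 402 and 853 CPM in DM-22 replicates 1 and 2, and 399.8 and 650.4 CPM in DM+SGLT2i replicates 1 and 2. Replicate 2 of each diabetic group was above all controls, whereas replicate 1 of each lay within them. The difference from C was 0.55 ± 0.38 (SE, log2) in DM-22 and 0.35 ± 0.38 in DM+SGLT2i, with adjusted p = 0.804 and 0.9997 by limma. Manf, an ER-resident factor that is also secreted, and Creld2, a folding factor of the same kind, were high in 1 library alone. Manf stood at 106 CPM in DM-22 replicate 2 and between 32.2 and 54.2 CPM in the other 6 libraries. Creld2 stood at 47.0 CPM there and between 16.7 and 25.2 CPM elsewhere. Hyou1, which drives nucleotide exchange on BiP, was at 198 CPM there and at 159 CPM in DM+SGLT2i replicate 2, and between 95.3 and 118 CPM in the other 5.

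In DM-22 replicate 2 the circadian transcription factor Arntl stood at 19.4 CPM, against 5.07 to 8.69 CPM in the other diabetic libraries and 1.21 to 1.77 CPM in controls. The 4 clock genes that peak with Arntl summed to 94.7 to 102 CPM in C, 116 to 164 CPM in DM-22 and 107 to 128 CPM in DM+SGLT2i libraries. The 9 that peak opposite to it summed to 827 to 1255 CPM, 524 to 722 CPM and 602 to 886 CPM, and 0 of these genes was at 0 in any library. The part of the clock genes in the levels of the chaperones was not tested.

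Sdf2l1, a partner of BiP and its J-domain cochaperones, had the widest relative range of its class. It stood at 19.6, 7.05 and 4.81 CPM in C replicates 2, 8 and 9, at 13.4 and 16.6 CPM in DM-22 and at 10.4 and 17.3 CPM in DM+SGLT2i libraries. All 4 diabetic libraries were above control replicates 8 and 9 and below control replicate 2. The difference between DM-22 and C was 0.73 ± 0.55 (SE, log2) with all 3 controls and 1.29 ± 0.30 without control replicate 2, with adjusted p = 0.804 and 0.0958 by limma. Pdia6, a protein disulfide isomerase, stood at 205, 129 and 121 CPM in C, 166 and 178 CPM in DM-22 and 155 and 199 CPM in DM+SGLT2i libraries. Its order was the same, with control replicate 2 highest and the other controls lowest. Hsp90b1, the ER Hsp90 known as GRP94, stood at 437, 315 and 276 CPM in C, 360.0 and 427 CPM in DM-22 and 380 and 491 CPM in DM+SGLT2i libraries. When control replicate 2 was left out, the differences of Pdia6 were 0.46 ± 0.16 in DM-22 and 0.49 ± 0.16 in DM+SGLT2i (SE, log2), with adjusted p = 0.157 and 0.203 by limma.

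The other 7 folding genes are lectins, isomerases and J-domain cochaperones. Calr and Canx, the lectin chaperones of the glycoprotein folding cycle, ranged from 656 to 1141 CPM and from 470 to 649 CPM, both lowest in control replicate 9 and highest in control replicate 2. Pdia3, the isomerase that works with these lectins, ranged from 391.6 to 536 CPM and Pdia4 from 87.3 to 135 CPM. Among the J-domain cochaperones of BiP, Dnajb9 ranged from 45.3 to 74.6 CPM, Dnajb11 from 84.5 to 127 CPM and Dnajc3 from 170 to 209 CPM. Their log2 differences between diabetic groups and C lay between -0.18 (Dnajb9 in DM+SGLT2i) and 0.24 (Calr in DM+SGLT2i) with all 3 controls, and between -0.05 and 0.46 for the same genes when control replicate 2 was left out.

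The sensors themselves differed little between libraries. Eif2ak3, the PERK kinase, ranged from 41.2 to 49.0 CPM, Atf6 from 68.1 to 78.3 CPM and Ern1, the IRE1 kinase and nuclease, from 28.3 to 42.5 CPM. The 95% intervals of the difference between DM-22 and C were -0.24 to 0.37 for Eif2ak3, -0.36 to 0.23 for Atf6 and -0.59 to 0.35 for Ern1 (log2). For Ern1 the difference was -0.12 with all 3 controls and -0.29 without control replicate 2, with adjusted p = 0.885 and 0.201 by limma. Xbp1, whose unspliced and spliced forms are not separated by a gene-level count, stood at 120, 139.9 and 179 CPM in C, 156 and 183 CPM in DM-22 and 99.3 and 149.7 CPM in DM+SGLT2i libraries. Both DM-22 libraries were above both DM+SGLT2i libraries, with a difference of -0.47 ± 0.27 (SE, log2) and adjusted p = 0.881 by limma.

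Atf4 encodes the transcription factor that PERK signalling engages. Its mRNA stood at 42.0, 64.4 and 97.0 CPM in C, 39.1 and 62.2 CPM in DM-22 and 37.4 and 41.4 CPM in DM+SGLT2i libraries. All 4 diabetic libraries were below control replicates 8 and 9, and control replicate 2 lay among them. The difference between DM+SGLT2i and C was -0.70 ± 0.36 (SE, log2) with all 3 controls and -0.998 ± 0.28 without control replicate 2, with adjusted p = 0.9997 and 0.173 by limma. Because ATF4 is controlled largely at translation, mRNA levels of Atf4 do not measure the protein.

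Asns, asparagine synthetase, is a direct ATF4 target whose CARE window is printed above. It stood at 13.6, 4.04 and 3.48 CPM in C replicates 2, 8 and 9, at 9.16 and 8.63 CPM in DM-22 and at 9.69 and 10.1 CPM in DM+SGLT2i libraries. The 4 diabetic libraries lay close together, above control replicates 8 and 9 and below control replicate 2. With all 3 controls the difference was 0.57 ± 0.53 (SE, log2) in DM-22 and 0.71 ± 0.53 in DM+SGLT2i, with adjusted p = 0.816 and 0.9997 by limma. Without control replicate 2 it was 1.14 ± 0.16 in DM-22 and 1.29 ± 0.16 in DM+SGLT2i, with adjusted p = 0.0826 and 0.0687, and 1.22 ± 0.14 over all diabetic libraries, with adjusted p = 0.0552 by limma. That was the smallest adjusted p among the 40 genes in any comparison, and it missed the threshold. The difference between DM+SGLT2i and DM-22 was 0.15, with a 95% interval of -0.24 to 0.54 in the same fit. Control replicate 2 was the highest control for Asns, so leaving it out widened the differences from C. Leaving out control replicate 8 or 9 instead narrowed them, since both lay below the control mean.

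Trib3 and Chac1 shared this order of controls. Trib3, a pseudokinase that restrains ATF4, stood at 2.84, 1.05 and 0.983 CPM in C, 2.32 and 1.73 CPM in DM-22 and 2.68 and 2.84 CPM in DM+SGLT2i libraries. Chac1, which degrades glutathione, stood at 1.70, 0.442 and 0.491 CPM in C, 1.17 and 1.27 CPM in DM-22 and 1.12 and 0.759 CPM in DM+SGLT2i libraries. Both lay above control replicates 8 and 9 in all 4 diabetic libraries, and below control replicate 2. Over all diabetic libraries the difference without control replicate 2 was 0.91 ± 0.20 for Trib3 and 0.70 ± 0.23 for Chac1 (SE, log2), with adjusted p = 0.0831 and 0.148 by limma.

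Ddit3 and Ppp1r15a, the other targets, followed a different order. Ddit3, the transcription factor CHOP that promotes cell death under lasting ER stress, stood at 10.5, 7.03 and 30.1 CPM in C, 6.44 and 6.36 CPM in DM-22 and 6.99 and 8.13 CPM in DM+SGLT2i libraries. Ppp1r15a, the GADD34 subunit that directs dephosphorylation of eIF2alpha, stood at 26.8, 19.4 and 39.8 CPM in C, 20.5 and 13.9 CPM in DM-22 and 19.4 and 20.1 CPM in DM+SGLT2i libraries. Both were highest in control replicate 9, the library with 4688 CPM of immediate early genes, and no diabetic library exceeded control replicate 2 in either. Over all diabetic libraries the difference from C was -0.87 ± 0.46 for Ddit3 and -0.58 ± 0.26 for Ppp1r15a (SE, log2), with adjusted p = 0.988 for both by limma. When control replicate 9 was left out, these differences were -0.29 for Ddit3 and -0.31 for Ppp1r15a (log2). Over the 5 targets, differences from C ranged from -0.98 to 0.57 in DM-22, with a median of 0.35, and from -0.76 to 0.72 in DM+SGLT2i, with a median of 0.16 (log2). The DM-22 median lay between 0.14 (without control replicate 9) and 0.73 (without control replicate 2) as each library was left out. The DM+SGLT2i median lay between -0.05 (without control replicate 8) and 0.56 (without control replicate 2), and it was also below 0, at -0.02, without control replicate 9 or without DM+SGLT2i replicate 1. Exons of Ddit3 overlap those of Mars on the opposite strand over 68 bases, 3.97% of its exonic length, and how strand entered the counting is not given in the sources used here.

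**Figure D4:**
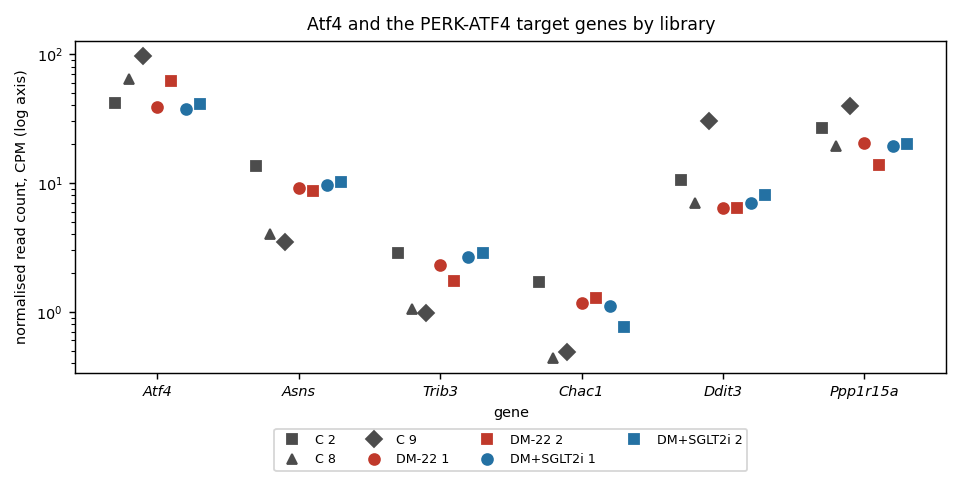
Each point is 1 library, with CPM on a log axis, colour for the group and shape for the replicate number. Asns, Trib3 and Chac1 were high in C replicate 2 and low in C replicates 8 and 9, whereas Atf4, Ddit3 and Ppp1r15a were highest in C replicate 9, at 97.0, 30.1 and 39.8 CPM.

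Of the 4 genes of ER-associated degradation, Syvn1 (the HRD1 ubiquitin ligase) was slightly higher in every diabetic library, at 54.3 and 65.3 CPM in DM-22 and 52.1 and 56.2 CPM in DM+SGLT2i against 48.1, 50.6 and 50.4 CPM in C. The difference over all diabetic libraries was 0.19 ± 0.11 (SE, log2), with adjusted p = 0.988 by limma. Herpud1, an ER membrane protein that assembles the HRD1 complex, stood at 292, 309 and 375 CPM in C, 300.2 and 324 CPM in DM-22 and 268 and 249 CPM in DM+SGLT2i libraries. Both DM+SGLT2i libraries lay below all other 5, with a difference from C of -0.32 ± 0.17 with all 3 controls and -0.40 ± 0.16 without control replicate 2 (SE, log2), and adjusted p = 0.9997 and 0.27 by limma. Edem1, which directs misfolded glycoproteins to degradation, stood at 79.2, 135 and 136 CPM in C, 93.3 and 119.7 CPM in DM-22 and 89.6 and 103 CPM in DM+SGLT2i libraries. Control replicate 2 was lowest and the other controls highest, with all 4 diabetic libraries between them. Sel1l, the adaptor of HRD1, ranged from 119 CPM in control replicate 2 to 172 CPM in DM-22 replicate 2.

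The cytosolic heat shock genes had lower mean log2 levels in DM+SGLT2i than in DM-22 for 9 of 9 genes, whereas 50.6% of all genes were higher. The median difference was -0.70, beside 0.0045 for all genes. That median is the value of Hspa1b (-0.70 ± 1.14, SE), which with the near-identical Hspa1a makes 2 of the 9. Of the 9, 1 passed the unadjusted threshold, against 3.91% of all genes. Without DM-22 replicate 2, 7 of 9 were lower with a median of -0.70, and without DM+SGLT2i replicate 1, 9 of 9 with a median of -0.39. Hsph1, an Hsp110 that exchanges nucleotide on Hsp70, stood at 144 and 185 CPM in DM-22, 64.4 and 104 CPM in DM+SGLT2i and 90.5, 97.3 and 149.6 CPM in C libraries. Both DM-22 libraries were above both DM+SGLT2i libraries, and controls covered much of the range. The difference between DM+SGLT2i and DM-22 was -0.99 ± 0.33 (SE, log2), with an unadjusted limma p of 0.0199 and adjusted p = 0.881, and -0.65 when DM+SGLT2i replicate 1 was left out. Hspa8, which folds and traffics proteins in unstressed cells, stood at 1987, 2262 and 3307 CPM in C, 1946 and 4545 CPM in DM-22 and 1429 and 1867 CPM in DM+SGLT2i libraries. Its difference between DM+SGLT2i and DM-22 was -0.86 ± 0.50 (SE, log2), with adjusted p = 0.881 by limma.

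Of all 40 genes, 9 lay lower in both DM+SGLT2i than in both DM-22 libraries (22.5%, against 20% of all genes), namely Dnajb9, Xbp1, Herpud1, Chac1, Hspa1a, Hspa8, Hsph1, Dnajb1 and Hspb1. Higher were 5 (12.5%, against 21.4%), namely Ern1, Atf6, Ddit3, Trib3 and Asns. Of these lower genes, 5 are cytosolic heat shock genes, but the share of lower genes among the 40 was near that of all genes. Hspa1a is among the 5, whereas the near-identical Hspa1b is not. Hspa1b stood at 103 CPM in DM-22 replicate 2 and 108 CPM in DM+SGLT2i replicate 2.

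Hspa1a and Hspa1b encode the stress-inducible Hsp70 and showed the widest range of all 40. Hspa1a stood at 88.5, 42.1 and 621 CPM in C replicates 2, 8 and 9, 165 and 97.5 CPM in DM-22 and 61.8 and 92.5 CPM in DM+SGLT2i libraries. Control replicate 9 exceeded the lowest library, control replicate 8, by 14.7-fold, and both are of the same group. Hspa1b followed it closely, at 103, 45.1 and 662 CPM, 184 and 103 CPM, and 67.0 and 108 CPM in the same order, and the ratio of Hspa1a to Hspa1b lay between 0.859 and 0.946 in all 7 libraries. The 2 genes are nearly the same in sequence: 58.8% of the 50-base windows of the Hspa1a transcripts also occur in those of Hspa1b, so reads could be split between them by the counting and each level is uncertain. Summed, their difference between DM-22 and C was -0.07 ± 1.04 (SE, log2), with adjusted p = 0.989 by limma. Exons of Hspa1a also overlap those of Gm20481 on the opposite strand over 564 bases. The likeness extends to the promoters, which differ at 3 of 250 bases before the start and are printed to show how far the 2 genes share their upstream sequence, with the differing bases in capitals.
Hspa1a: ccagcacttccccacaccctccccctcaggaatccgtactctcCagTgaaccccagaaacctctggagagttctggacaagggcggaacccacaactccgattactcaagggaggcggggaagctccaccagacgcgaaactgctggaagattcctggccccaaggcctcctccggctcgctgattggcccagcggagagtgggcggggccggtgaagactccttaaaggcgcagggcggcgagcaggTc
Hspa1b: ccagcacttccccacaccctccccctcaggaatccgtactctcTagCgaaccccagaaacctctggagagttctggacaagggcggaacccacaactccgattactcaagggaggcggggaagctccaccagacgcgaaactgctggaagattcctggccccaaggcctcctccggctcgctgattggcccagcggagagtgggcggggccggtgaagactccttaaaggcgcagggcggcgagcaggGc
They lie at chr17:34972157-34972406 and chr17:34959239-34959488, both on the minus strand.

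Dnajb1, the Hsp40 that loads substrates onto Hsp70, was also highest in control replicate 9. It stood at 187 CPM there, at 36.4 and 33.7 CPM in control replicates 2 and 8, and between 32.2 and 61.2 CPM in the 4 diabetic libraries. In the same library the immediate early genes Fos and Egr1 stood at 331 and 1166 CPM, whereas Fos did not exceed 5.43 CPM and Egr1 did not exceed 80.6 CPM in any other library, and their part in the heat shock genes was not tested. Without control replicate 9, 9 of 9 cytosolic heat shock genes were higher in DM-22 than in C with a median difference of 0.74 (log2), against 6 of 9 and a median of 0.19 with all 3 controls. The median in DM-22 versus C was 0.05 without control replicate 8, 0.12 without control replicate 2, 0.36 without DM-22 replicate 1 and 0.32 without DM-22 replicate 2. In DM+SGLT2i versus C it was -0.42 with all libraries, 0.09 without control replicate 9, -0.09 without DM+SGLT2i replicate 1 and -0.76 without DM+SGLT2i replicate 2.

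**Figure D5:**
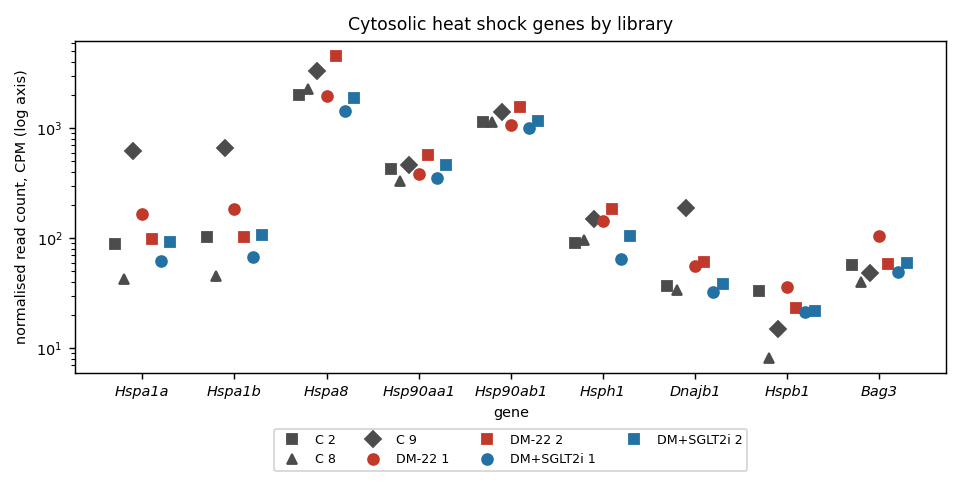
Each point is 1 library, with CPM on a log axis, colour for the group and shape for the replicate number, for the 9 cytosolic heat shock genes. Hspa1a, Hspa1b and Dnajb1 of C replicate 9 stand clear of the other 6 libraries, at 621, 662 and 187 CPM, whereas Hspa8 was highest in DM-22 replicate 2 at 4545 CPM.

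Bag3 and Hspb1 act together on damaged filaments and aggregates, Bag3 as the cochaperone that links Hsp70 to autophagy and Hspb1 as the small heat shock protein Hsp27. Bag3 stood at 57.5, 39.7 and 48.4 CPM in C, 105 and 58.0 CPM in DM-22 and 48.8 and 59.6 CPM in DM+SGLT2i libraries. DM-22 replicate 1 was far above the rest, and DM-22 replicate 2 exceeded the highest control by less than 1 CPM. The difference between DM-22 and C was 0.69 ± 0.28 (SE, log2), with an unadjusted limma p of 0.0461 and adjusted p = 0.804, and 0.27 when DM-22 replicate 1 was left out. Hspb1 stood at 32.9, 8.23 and 14.9 CPM in C, 35.7 and 23.2 CPM in DM-22 and 21.5 and 21.9 CPM in DM+SGLT2i libraries. Its difference in DM-22 was 0.83 ± 0.53 with all 3 controls and 1.33 ± 0.32 without control replicate 2 (SE, log2), with adjusted p = 0.804 and 0.0994 by limma. DM-22 replicate 1, highest in both genes, also held 487 CPM of 9 inner medulla and urothelium markers, against 79.9 to 308 CPM in the other libraries, and 15148 CPM of 5 thick ascending limb markers, against 4778 to 8639 CPM. The part of these markers was not tested.

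The cytosolic Hsp90 genes and the mitochondrial chaperones were steadier. Hsp90aa1, the inducible form, ranged from 334 to 566 CPM and Hsp90ab1 from 1005 to 1572 CPM, both highest in DM-22 replicate 2. Hspd1, the Hsp60 barrel, stood at 454, 639 and 651 CPM in C, 438 and 700.0 CPM in DM-22 and 539 and 572 CPM in DM+SGLT2i libraries. Its difference between DM-22 and C was -0.05, with a 95% interval of -0.71 to 0.60 (log2), and -0.22 when control replicate 2 was left out. Hspe1, the Hsp10 lid of that barrel, stood at 139.5, 119.4 and 151 CPM in C, 103 and 152 CPM in DM-22 and 89.9 and 127 CPM in DM+SGLT2i libraries. The ratio of Hspd1 to Hspe1 in CPM lay between 3.26 and 6.00. Hspa9, the mitochondrial Hsp70, ranged from 796 to 959.8 CPM, with a difference of 0.07 between DM-22 and C and an interval of -0.39 to 0.52 (log2).

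Other genes of the same pathways were counted from lists that do not hold the 40. Of 72 other ER folding, translocation and degradation genes, 56 (77.8%, against 50.7% of all genes) had differences above 0 in DM-22 versus C with a median of 0.17 (log2). Without DM-22 replicate 2 there were 50 and the median was 0.09. The adjusted threshold was passed by 0 of them in any comparison with either set of controls. At an unadjusted limma p under 0.05 with all 3 controls, 3 of 72 passed in DM-22 versus C, against 4.47% of all genes, of which 1 was higher (Ube2g2, a ubiquitin-conjugating enzyme of ER-associated degradation, difference 0.45) and 2 were lower (Fkbp14, a collagen-folding prolyl isomerase, -0.76, and Crebrf, a regulator of the response, -0.61). Ube2g2 stood at 23.9, 20.9 and 21.2 CPM in C, 30.4 and 29.8 CPM in DM-22 and 21.1 and 24.3 CPM in DM+SGLT2i libraries, so that the DM-22 libraries lay above all others. Fkbp14 lay between 8.80 and 9.58 CPM in C, at 6.44 and 4.26 CPM in DM-22 and at 9.24 and 7.97 CPM in DM+SGLT2i libraries. Their differences between DM+SGLT2i and DM-22 were -0.40 and 0.66, both at an unadjusted p under 0.05. Creb3l3, a membrane-bound transcription factor of the ER, was the 1 gene of this list at that level in DM+SGLT2i versus C (0.94). The share of all genes at that level was 1.08%. Creb3l3 did not exceed 1.45 CPM in any library. Over all diabetic libraries, Crebrf (-0.49) and Fkbp14 (-0.43) were at that level, against 2.04% of all genes.

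Of 44 other ATF4 and integrated stress response genes, 0 passed the unadjusted threshold in DM-22 versus C with all 3 controls, against 4.47% of all genes. Without control replicate 2 there were 8 higher (against 10.4% of all genes) and 2 lower (against 14.8%), and in DM+SGLT2i versus C 9 higher (against 8.73%) and 2 lower (against 9.14%). Atf5, a transcription factor made like ATF4 by translational control, stood at 41.6, 14.1 and 13.5 CPM in C, 25.6 and 25.9 CPM in DM-22 and 28.2 and 32.1 CPM in DM+SGLT2i libraries. That is the order of Asns, with the diabetic libraries between control replicate 2 and the other controls. Its difference over all diabetic libraries without control replicate 2 was 0.99 (log2), with adjusted p = 0.0548 by limma. Mthfd2, an enzyme of mitochondrial one-carbon metabolism, and Slc7a1, a transporter of cationic amino acids, showed differences of 0.98 and 1.22 in the same comparison, with adjusted p = 0.0703 and 0.0729. With all 3 controls, 1 gene of this list reached an unadjusted limma p under 0.05 over all diabetic libraries, against 2.04% of all genes. That was Vldlr, a lipoprotein receptor (-0.35). In DM+SGLT2i versus DM-22 the 1 gene was Eif2ak2, the eIF2alpha kinase PKR (0.74), against 3.91% of all genes. Eif2ak2 stood at 14.3 CPM in both DM-22 libraries, at 26.0 and 22.3 CPM in DM+SGLT2i and between 15.9 and 23.3 CPM in C libraries.

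In DM-22 versus C, 4.47% of all genes reached an unadjusted limma p under 0.05. Among 46 other cytosolic chaperones and HSF1 pathway genes, 1 did so, Fkbp5, a glucocorticoid-induced cochaperone of Hsp90 (0.52). Among 19 other mitochondrial chaperones and proteases, 1 did so, Grpel2, a nucleotide exchange factor of mitochondrial Hsp70 (-0.71). Of the 46 other cytosolic chaperones and HSF1 pathway genes, 9 had differences above 0 in DM+SGLT2i versus DM-22 (19.6%, against 50.6% of all genes) and 37 below, with a median of -0.24 (log2). The median was -0.14 without DM-22 replicate 2, -0.12 without DM+SGLT2i replicate 1 and -0.37 without DM+SGLT2i replicate 2. An unadjusted limma p under 0.05 was reached by 4 of 46, against 3.91% of all genes, of which 3 were lower: Dnajb2, an Hsp40 (-0.58), Cct4, a subunit of the cytosolic chaperonin (-0.47), and Chordc1, an Hsp90 cochaperone (-0.83). Chordc1 stood at 37.2 and 67.1 CPM in DM-22 and 21.9 and 35.5 CPM in DM+SGLT2i libraries, with controls between 34.1 and 40.4 CPM. Hspb7, a small heat shock protein, was the higher one (0.95). Of the 19 other mitochondrial chaperones and proteases, 2 had differences above 0 in DM+SGLT2i versus DM-22 (10.5%, against 50.6% of all genes), with a median of -0.08. Without DM-22 replicate 2 there were 12 above 0 with a median of 0.01, without DM+SGLT2i replicate 1 there were 7 with a median of -0.04, and the median was -0.19 without DM-22 replicate 1 and -0.15 without DM+SGLT2i replicate 2. Among the 19, Hscb, which matures iron-sulfur clusters, had the smallest unadjusted p (-0.54). The genes named with an unadjusted p under 0.05 had adjusted p = 0.804 in DM-22 versus C and 0.881 in DM+SGLT2i versus DM-22 by limma.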

How the data were processed

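Per the labels, mRNA was purified from 500 ng of total RNA and made into strand-specific libraries, and the submitters' processing notes name bcl2fastq, FastQC, Trim Galore, STAR, edgeR and the mm10 build, without versions. The authors deposited 1 table of log2 values of TMM-normalised CPM for 17537 genes, with a constant averaging 2 reads added. CPM were recovered by subtracting that constant (0.0395 CPM) after exponentiation, and division by the CPM of 1 read gave whole reads (tolerance 0.05) for 100% of values below 1000 reads. The design had allowed for other units, and the log2 unit was settled from the values. Columns of values not used numbered 0.

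Groups and replicate numbers came from the labels. Differences were tested with limma 3.58.1 (R 4.3.3; lmFit, and eBayes with a trend) on log2(CPM + 0.5), fitting the 3 groups together, after genes under 1 CPM in all but 1 or in all libraries were removed (13976 genes kept). Fold changes are on that scale, which understates changes of low genes. Two-sided p-values were corrected by the Benjamini-Hochberg method over all of these genes, and 0.05 was the threshold. The procedure was tested on simulated data in which no library stood apart from its group, so that test does not show how it performs on these libraries. Replicate numbers 1 and 2 occur in both diabetic groups, and the deviations of same-numbered libraries correlated at r = -0.04 across genes, so the numbers were not taken as pairs.

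The 40 genes, the lists and the tests were chosen with earlier results of these data known. All 40 are named. Values per library are given for those with an unadjusted p under 0.05 in any comparison, the widest-ranging gene of each class, and Hspa5, Xbp1, Atf4, Ddit3, Asns, Hspa1a, Hspa1b and Hspd1. Manf, Creld2, Hyou1, Syvn1, Ppp1r15a, Hspa8, Dnajb1, Ube2g2, Fkbp14, Atf5, Chordc1, Eif2ak2, Arntl and Egr3 were added after their values were seen. Lengths and overlaps are from GENCODE M21 (GRCm38), which matched 17476 gene identifiers and symbols, and promoters from RefSeq (GRCm38.p6), of which only bases before the start were searched. Summaries and figures used Python 3.11.15, numpy 2.4.6, pandas 2.3.3 and matplotlib. Protein sequences were not used here. Alternatives were other pseudocounts, no filter, other scalings, voom weights on the recovered reads, fitting only the groups compared, each library left out, a replicate block and, for Hspa1a, the sum with Hspa1b.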

Additional observations from a re-analysis of the deposited data

Results flagged for a closer look

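Within the 4 diabetic libraries, which received the same streptozotocin, 4 of the 40 genes had 1 library far from the other 3. For each gene the gap to the nearest library as a share of the whole range was above the limit of Dixon's test for 4 values, which chance exceeds in about 1 of 20 groups. The 4 genes are 10% of the 40, against 5.94% of all genes tested. Hspb1 was far higher in DM-22 replicate 1 (35.7 CPM, against 21.5 to 23.2 CPM, ratio 0.883). DM-22 replicate 2 was the far library for the other three, with Atf4 high (62.2 CPM, against 37.4 to 41.4 CPM, ratio 0.840), Hspa8 high (4545 CPM, against 1429 to 1946 CPM, ratio 0.834) and Ppp1r15a low (13.9 CPM, against 19.4 to 20.5 CPM, ratio 0.838). Controls number 3 and were not examined in this way.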

How the results depend on the processing

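No gene of the 40 passed the adjusted threshold under any alternative. The number at an unadjusted p under 0.05 in DM-22 versus C, 1 in the report, became 0 with upper-quartile scaling and 0 when only the groups compared were fitted, and ranged from 0 to 7 when each library was left out in turn. In DM+SGLT2i versus C it was 0 and ranged from 0 to 9, and over all diabetic libraries versus C it was 0 and ranged from 0 to 9, in both cases highest without control replicate 2. In DM+SGLT2i versus DM-22 it was 1, became 2 when only these groups were fitted, 2 with a replicate block, and ranged from 0 to 4 when libraries were left out, with 4 without DM-22 replicate 1. The cause was not tested. Other pseudocounts, no filter, median-of-ratios scaling and voom weights left these counts within 1.5 times. Where an arm was left with 1 library, that library was assumed to vary like the other groups. The labels do not say whether same-numbered diabetic libraries share more than a number, and the block changed no adjusted call. In both diabetic groups the mean level of the ER chaperones was higher in replicate 2 than in replicate 1. It was 0.43 against -0.10 in DM-22 and 0.27 against -0.18 in DM+SGLT2i (log2, relative to the mean of all libraries). Scalings shifted library medians by at most 0.0513 on the log2 scale, and differences smaller than that changed sign between scalings for Canx, Pdia3, Hspd1 and Hspa9 in DM+SGLT2i versus DM-22, Eif2ak3 and Hsp90aa1 in DM+SGLT2i versus C and Xbp1 in all diabetic libraries versus C. Groups of 2 and 3 libraries leave wide intervals, and depth limits mainly Chac1, at 0.442 to 1.70 CPM per library where 1 read is worth up to 0.0231 CPM.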
